A study of Arabidopsis thaliana with 6 samples.

Results

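PUB22 (AT3G52450), PUB23 (AT2G35930), PUB24 (AT3G11840) and RING1 (AT5G10380) encode ubiquitin ligases linked to plant immunity. They were taken by their annotation in the deposited Arabidopsis thaliana expression table, in which each of the 4 genes was found with 1 probe set, among 13286 gene loci that could be named. RNA came from 3-week-old plants of the mutant alleles camta3-1 and camta3-2 and from wild type plants, with 2 biological replicates each and 1 Affymetrix array per replicate. CAMTA3, a transcription factor that binds calmodulin, is known to hold salicylic acid-dependent defence genes down. The sources used here do not give the tissue, the growth conditions, the wild type's accession or the kind of each camta3 mutation, nor do they say how many plants made up a replicate. Whether CAMTA3 transcripts are lost in the mutants was not analysed here.

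A ubiquitin ligase, or E3, brings a ubiquitin-loaded conjugating enzyme, or E2, to a chosen protein and so sets which proteins are marked, often for breakdown by the proteasome. In PUB22, PUB23 and PUB24 the E2 is bound by a U-box, and these close relatives are known to dampen the signalling that starts when cell surface receptors sense microbial patterns. PUB22 is known to act on EXO70B2, a subunit of the exocyst that tethers secretory vesicles, and PUB22 and PUB23 are also known from drought responses. RING1 belongs to the RING type of ligases, sits at the plasma membrane and is known to promote the programmed cell death that the fungal toxin fumonisin B1 triggers.

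RING1 and PUB24 transcripts were higher in camta3 mutants over both alleles, and those of PUB22 and PUB23 did not pass the test. PUB24 stood close to the threshold and passed in neither allele alone (limma, adjusted p = 0.129 in camta3-1 and 0.075 in camta3-2). Averaged over both alleles and set against wild type, RING1 rose 4.22-fold and PUB24 rose 1.97-fold (limma, adjusted p = 0.00448 and 0.0479). PUB22 was 1.05-fold and PUB23 0.842-fold its wild type value (limma, adjusted p = 0.806 and 0.517). Of the 4 genes 2 were therefore called, both higher, against 1.15% of all 22746 probe sets called higher in that comparison. The genes were chosen with earlier results of these data known, so this and later shares describe the background and do not test enrichment. Their array values, on the log2 scale, are given gene by gene below. Probes differ in brightness, so values and percentiles of different probe sets describe signal and do not compare transcript amounts.

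The arrays were alike as a whole, with medians of 6.18 to 6.26 on the log2 scale and correlations across probe sets of 0.992 to 0.995 within groups and 0.986 to 0.994 between groups. Probe sets at the 3' end of control transcripts exceeded those at the 5' end by 3.39 to 3.55 log2 units (actin), 0.14 to 0.46 (GAPDH) and 1.19 to 1.33 (ubiquitin), with the lowest ubiquitin values in camta3-2. Of the leaf markers listed, 1 of 5 could be named, RCA, the activase of the carbon-fixing enzyme Rubisco, at 13.83 to 14.00 on all arrays. The root hair gene EXPA7, the 1 of 5 root markers that could be named, was at 4.33 to 4.64. The guard cell factor gene FMA was at 6.95 to 7.24 in the mutants and 7.41 and 7.62 in wild type (limma, adjusted p = 0.191). The part of tissue composition in the results was not tested, and in whole samples fewer cells of a type and less RNA per cell cannot be told apart.

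RING1 was measured at 10.61 and 9.86 in camta3-1, at 10.40 and 10.23 in camta3-2 and at 8.14 and 8.26 in wild type. Mutant and wild type arrays did not overlap, and the 4 mutant values were higher, with a gap of 1.60 log2 units between the nearest arrays. The same lack of overlap, with the mutants higher, was found for 7.89% of all probe sets. The gene had the 55th largest rise of the 22746 probe sets and the 15th largest among those with a single named gene. Over both alleles its log2 fold change was 2.08 (standard error 0.20), with a 95% confidence interval of 1.62 to 2.54, or 3.07- to 5.80-fold. The rise of this ligase gene was larger than the spread between replicates, which was widest in camta3-1 with an SD of 0.53, against 0.12 in camta3-2 and 0.09 in wild type (n = 2 each). Without wild type replicate 1 or 2 the log2 fold change of RING1 was 2.02 or 2.14, and its call was lost. These fits keep 1 wild type array, and the number of calls over all probe sets fell in them as well. In the unmoderated test the adjusted p of RING1 was 0.37.

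PUB24 was measured at 6.13 and 5.49 in camta3-1, at 6.17 and 5.97 in camta3-2 and at 4.95 and 4.98 in wild type. Here too the 4 mutant arrays were all higher than wild type without overlap, as for 7.89% of all probe sets, and the lowest mutant value was that of camta3-1 replicate 2. The mean of both alleles differed from wild type by a log2 fold change of 0.98 with a standard error of 0.17 and a 95% confidence interval of 0.57 to 1.38. This U-box gene ranked 254th by size of rise and 316th by p among the 22746 probe sets, of which 320 passed, so it stood just inside the threshold. PUB24 lost its call without wild type replicate 1 or 2 (limma, adjusted p = 0.39 and 0.315), without camta3-2 replicate 1 or 2 (0.114 and 0.0875), with both alleles pooled as 1 group (0.0533), in the unmoderated test (0.441) or with p-values adjusted over the probe sets with 1 gene (0.0573).

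PUB22 was measured at 4.93 and 4.92 in camta3-1, at 4.93 and 4.90 in camta3-2 and at 4.90 and 4.79 in wild type. The 6 values lay within 0.14 log2 units of each other, and mutant and wild type arrays overlapped. The log2 fold change for the mean of both alleles was 0.07, with a 95% confidence interval from -0.14 to 0.29, so the data allow a level from 0.905 to 1.22 times that of wild type. Its mean over the arrays stood at the 34.9th percentile of all probe sets, and RMA, the method behind the deposited values, shrinks differences of dim probe sets. The means of PUB23 and PUB24 also stood below the middle, at the 42.2nd and 43.0th percentile, and that of RING1 at the 91.5th. PUB22 was among the steadier probe sets within groups, with a residual SD of 0.05 that lay at the 6.34th percentile.

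PUB23 was measured at 5.49 and 5.47 in camta3-1, at 5.65 and 5.23 in camta3-2 and at 5.83 and 5.58 in wild type. The mutant arrays were mostly the lower ones, but camta3-2 replicate 1 lay above wild type replicate 2. For both alleles together the log2 fold change was -0.25 (standard error 0.14), and the 95% confidence interval ran from -0.57 to 0.08. A level of 0.671 to 1.06 times that of wild type is thus within the interval, and a rise as large as that of PUB24 is outside it. The spread between replicates reached an SD of 0.29 in camta3-2, against 0.17 in wild type (n = 2 each). PUB22 and PUB23 are close relatives, and whether either probe set also binds the other transcript was not tested.

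**Figure D1:**
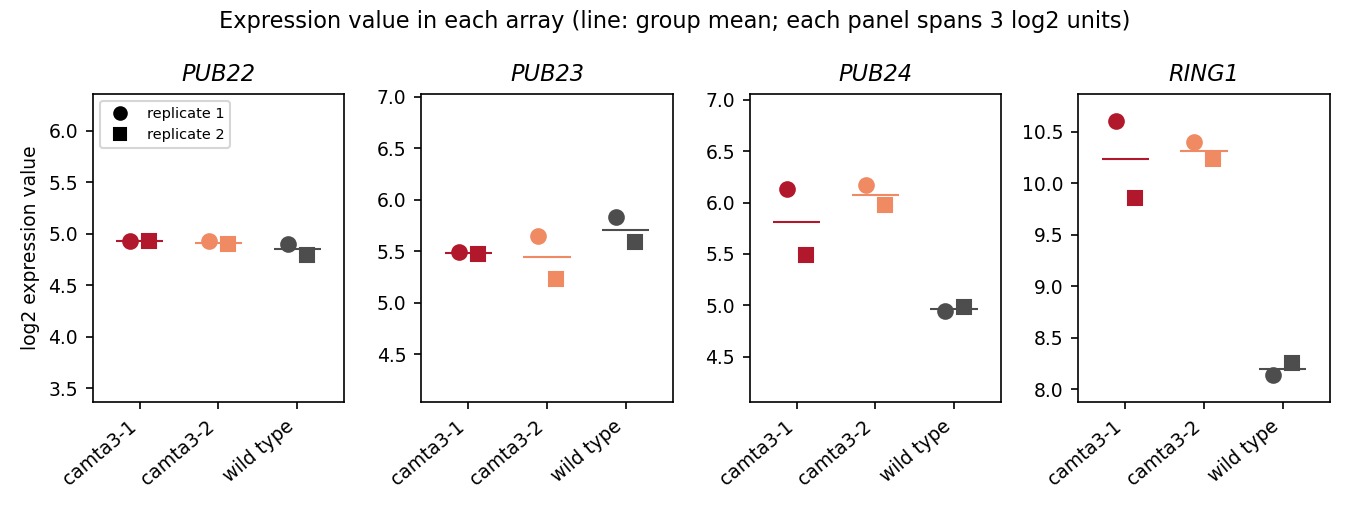
Log2 expression value of PUB22, PUB23, PUB24 and RING1 (vertical axes, each spanning 3 log2 units) on each array of camta3-1, camta3-2 and wild type, with circles for replicate 1, squares for replicate 2 and lines for group means. The mutant arrays of RING1 (9.86 to 10.61) and PUB24 (5.49 to 6.17) all lie above both wild type arrays, as for 7.89% of all probe sets, while those of PUB22 and PUB23 overlap with wild type.

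The log2 change of PUB24 exceeded that of PUB22 by 0.90 and that of PUB23 by 1.22, and the change of RING1 exceeded that of PUB22 by 2.01 and that of PUB23 by 2.33. These differences between changes were not tested. In both alleles replicate 1 lay above replicate 2 for all 4 genes. With 2 arrays per allele this is 1 order per gene and allele, and its share over all probe sets was not counted. Over all probe sets, deviations of same-numbered arrays from their group means correlated at 0.402 between the alleles. In camta3-1, replicate 1 lay 0.37 above the allele's mean for RING1 and 0.32 above it for PUB24, against 0.0023 for PUB22 and 0.0065 for PUB23. In camta3-2, replicate 1 lay 0.09 above the mean for RING1 and 0.10 above it for PUB24, against 0.02 for PUB22 and 0.21 for PUB23. In wild type replicate 1 lay 0.06 and 0.02 below the mean for RING1 and PUB24, and 0.06 and 0.12 above it for PUB22 and PUB23. The residual SD of RING1 and PUB24 (0.32 and 0.27) lay at the 95.3rd and 91.9th percentile of all probe sets, so both were among the more variable transcripts within groups, and the moderated SD used for their tests was smaller, at 0.23 and 0.20.

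The alleles were then taken singly, with the same 2 wild type arrays serving as control for each. In camta3-1, RING1 rose 4.10-fold, with a log2 fold change of 2.04 and a standard error of 0.23 (limma, adjusted p = 0.0118), and it was the 1 gene of the 4 that passed, against 0.805% of all probe sets called higher. The other 3 log2 fold changes in camta3-1 were 0.84 for PUB24, 0.08 for PUB22 and -0.23 for PUB23 (limma, adjusted p = 0.129, 0.826 and 0.643). The camta3-1 arrays of all 4 genes were clear of the wild type arrays, 3 above and PUB23 below, but so were 45.3% of all probe sets, and for PUB22 the gap between the nearest arrays was 0.02 log2 units. In camta3-1 the PUB24 value depended on both replicates, with a log2 fold change of 1.16 without replicate 2 and 0.53 without replicate 1. RING1 did not pass in camta3-1 without wild type replicate 1 or 2 (adjusted p = 0.163 and 0.0997) or in the unmoderated test (0.453).

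In camta3-2, RING1 rose 4.34-fold, with a log2 fold change of 2.12 and a standard error of 0.23 (limma, adjusted p = 0.0119), and again it was the 1 gene of the 4 that passed, against 0.655% of all probe sets called higher. PUB24 was 2.15-fold its wild type level, at a log2 fold change of 1.11 with a standard error of 0.20, and missed the threshold (limma, adjusted p = 0.075). PUB22 and PUB23 were at 0.07 and -0.27 (limma, adjusted p = 0.865 and 0.586). The camta3-2 arrays of RING1 and PUB24 lay above both wild type arrays, as did 13.4% of all probe sets, and those of PUB22 and PUB23 overlapped with wild type. In camta3-2 PUB24 passed in several alternatives, among them the fit of camta3-2 and wild type alone (adjusted p = 0.011), while RING1 did not pass without either camta3-2 array (0.0803 and 0.0586), without either wild type array (0.148 and 0.112) or in the unmoderated test (0.505).

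**Figure D2:**
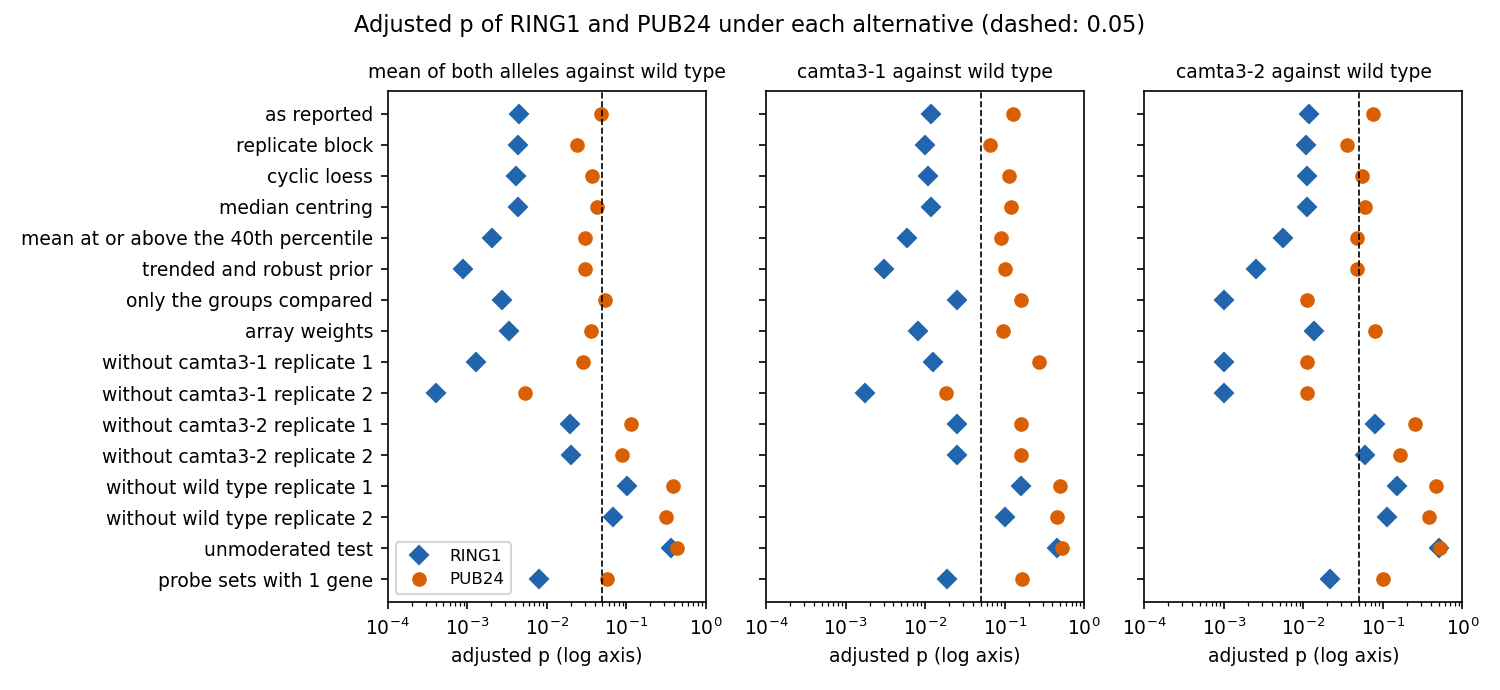
Adjusted p (horizontal, logarithmic axis) of RING1 (diamonds) and PUB24 (circles) in 3 comparisons with wild type, as reported and under each alternative listed down the left side, with a dashed line at 0.05. For the mean of both alleles RING1 crosses the line without wild type replicate 1 (0.104) or 2 (0.0676) and in the unmoderated test (0.37), and PUB24 starts at 0.0479, next to the line.

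Set against each other, the alleles were not distinguishable in any of the 4 genes. The log2 difference of camta3-2 minus camta3-1 was 0.08 for RING1, with a 95% confidence interval from -0.45 to 0.61, and 0.26 for PUB24, with an interval from -0.21 to 0.73. It was -0.01 for PUB22 and -0.04 for PUB23, with intervals from -0.26 to 0.24 and from -0.42 to 0.33. None of the 4 passed (limma, adjusted p = 0.85 to 0.993, 0 of 4 at an unadjusted p under 0.05), and 1 probe set of 22746, or 0.0044%, was called in this comparison. The arrays of the alleles overlapped for all 4 genes, whereas 34.6% of probe sets had alleles that did not overlap. The intervals still allow a difference between alleles of up to 1.53-fold for RING1 and 1.66-fold for PUB24.

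**Figure D3:**
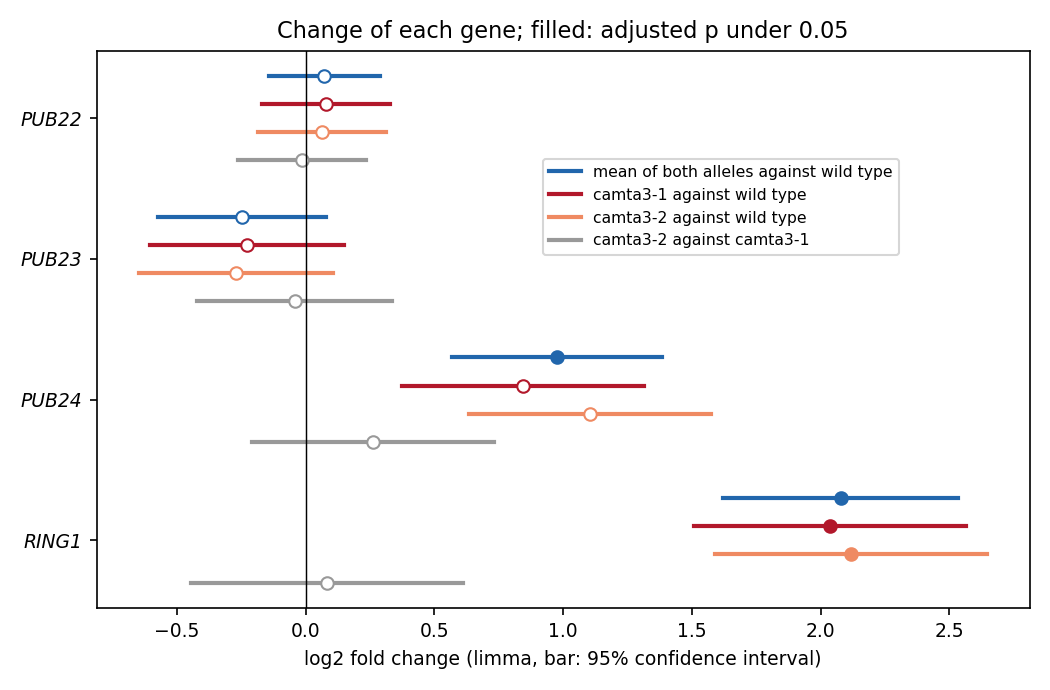
Log2 fold change (horizontal axis) of PUB22, PUB23, PUB24 and RING1 in 4 comparisons of camta3-1, camta3-2 and wild type, with bars for 95% confidence intervals and filled points for an adjusted p under 0.05. RING1 lies near 2.08 for the mean of both alleles and in each allele, PUB24 at 0.98, 0.84 and 1.11, and the differences between alleles have intervals that include 0.

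Genes with the most similar course over the 6 arrays were sought by the root-mean-square difference between values centred on each gene's own mean, among 13512 other probe sets with 1 gene. For RING1 the nearest was AT5G19240 at 0.146 log2 units (Pearson r = 0.99), followed by AT3G48080, AT1G74440, AT4G01700 and AT2G39210 at 0.171 to 0.219. For PUB24 the nearest was AT1G03290 at 0.0326 (r = 0.999), then AT1G03400 at 0.0488, AT3G45620 at 0.0758, AT4G28400 at 0.0786 and AT1G03210 at 0.0887. Within 0.15 log2 units lay 1 such gene for RING1, 22 for PUB24, 2500 for PUB23 and 7269 for PUB22. These counts depend on how much each gene varied. The 6 PUB22 values lay within 0.14 log2 units of each other, so a steady probe set falls within 0.15 whatever its course. The nearest to PUB22, AT2G16450 at 0.0237, carries little information. For PUB23 the nearest was AT5G53340 at 0.0219. These likenesses describe 6 arrays in 3 groups and were not tested.

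None of the measured genes next to the 4 loci passed. Of the 24 protein-coding genes that lie up to 3 places away in the reference gene table, 10 could be measured, and 0 passed (limma, 0 at an unadjusted p under 0.05). Over all probe sets 1.41% passed and 13.4% were at an unadjusted p under 0.05, so a count of 0 in 10 genes is near this background. The genes on either side of PUB24, AT3G11830 and AT3G11850, had log2 fold changes of 0.07 and -0.01 for the mean of both alleles. For RING1 the 1 measured neighbour was AT5G10350, at -0.12 (limma, adjusted p = 0.705). AT3G52460, next to PUB22, was at 0.02, and AT2G35920, next to PUB23, at -0.12.

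Of 26 measured genes on 4 lists of ligases, conjugating enzymes, substrates and immune signalling genes, 0 passed for the mean of both alleles (limma, 8 at an unadjusted p under 0.05, 3 higher and 5 lower). Their log2 fold changes ran from -0.46 to 0.38, so RING1 and PUB24 lay above all of these listed genes, although this was not tested. The share of all probe sets at an unadjusted p under 0.05 was 13.4%. Many members of these families were not measured under a named probe set, so the lists are partial. They also miss ligase genes whose symbols follow another pattern, such as RHF1A (AT4G14220), named after its values were seen, with a log2 fold change of 0.93 (limma, adjusted p = 0.0555), close to that of PUB24.

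Among U-box ligases that the gene table names PUB with a number, other than the trio, 6 of 20 could be measured and 0 passed. Of these, 2 were at an unadjusted p under 0.05 (limma), and the median log2 fold change was -0.02 against -0.05 for all probe sets. PUB25, known with PUB26 to mark the immune kinase BIK1 for breakdown, was measured at 4.66 and 4.81 in camta3-1, at 4.73 and 4.69 in camta3-2 and at 4.35 and 4.48 in wild type. The mutant arrays of PUB25 were all above wild type, with a log2 fold change of 0.31 (limma, adjusted p = 0.241), while PUB26 was at 0.03. PUB19, a ligase known from abscisic acid and drought responses, was measured at 4.89 and 4.92 in camta3-1, at 5.53 and 5.01 in camta3-2 and at 5.75 and 5.34 in wild type. The log2 fold change of PUB19 was -0.46 (limma, adjusted p = 0.309), and its mutant and wild type arrays overlapped. PUB49, PUB43 and PUB15 were at -0.14, -0.03 and 0.00.

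The ATL family comprises membrane-bound ligases of the RING-H2 type. Of the genes that the gene table names ATL with a number, 3 of 13 could be measured besides RING1. ATL genes under other names are not in this list. All 3 had negative log2 fold changes, where the median over all probe sets was also negative, at -0.05. ATL63 was measured at 4.67 and 4.75 in camta3-1, at 4.87 and 4.89 in camta3-2 and at 5.20 and 5.22 in wild type, a log2 fold change of -0.41 that did not pass (limma, adjusted p = 0.0964). ATL5 was at -0.36 and ATL8 at -0.21 (limma, adjusted p = 0.223 and 0.602). The mutant arrays of ATL63 and ATL5 lay below both wild type arrays, as did 15.8% of all probe sets, and the 3 genes had a median of -0.36. The values of ATL63 lay on the other side of wild type from those of RING1.

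The E2 enzymes, which hand ubiquitin to the ligases, were measured for 13 of 37 genes, and 0 passed (limma, 2 at an unadjusted p under 0.05). Their log2 fold changes ran from -0.29 to 0.20 with a median of -0.02. UBC37 and UBC29 had the smallest p, at -0.29 each (limma, adjusted p = 0.259 and 0.346). A mixed list held substrates of the PUB trio, pattern receptors with their kinases, and PUB25 and PUB26, which are counted among the U-box ligases too. Of its 18 genes 6 were measured, with a median of 0.21, and 0 passed (limma, 3 at an unadjusted p under 0.05). These 3 were PUB25, the bacterial elongation factor receptor gene EFR and BIK1, with EFR at 5.75 and 6.02 in camta3-1, 5.89 and 6.02 in camta3-2 and 5.56 and 5.62 in wild type. The 4 mutant arrays of each of the 3 lay above wild type, as did 7.89% of all probe sets. RPN12a, a subunit of the proteasome's regulatory particle that PUB22 and PUB23 are known to ubiquitinate, was at 0.12 and AT4G17410 at 0.02. Of the other immune ligases and F-box proteins listed, 1 of 24 could be measured, AT5G37490, at 0.04. It was listed as PUB21, a name the gene table does not give it, so it is not counted with the PUB genes above. Of 31 proteasome genes chosen by name, a list that does not hold RPN12a, 0 could be measured.

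**Figure D4:**
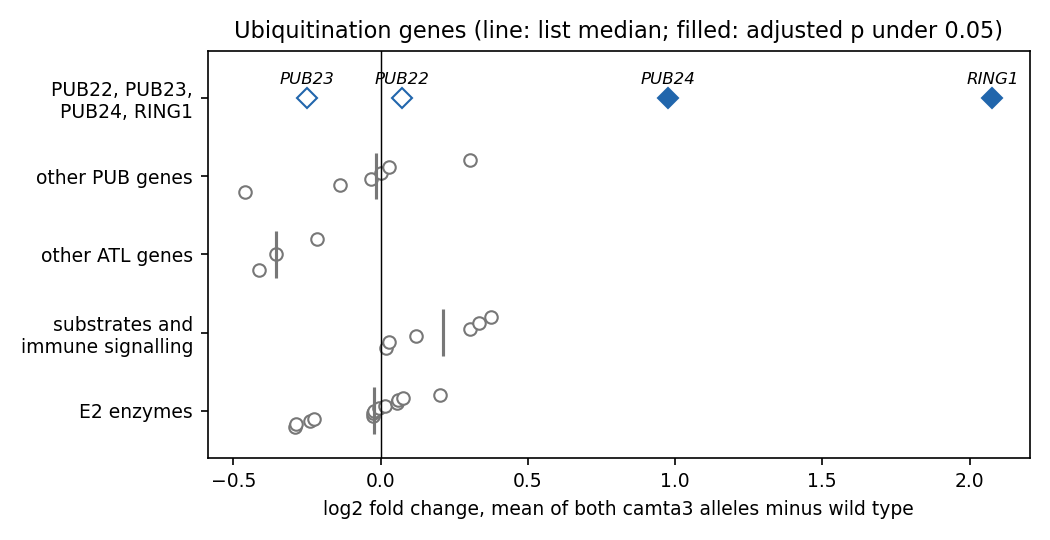
Log2 fold change for the mean of both camta3 alleles minus wild type (horizontal axis) of the 4 ligase genes (diamonds, filled for an adjusted p under 0.05). Circles, with lines for list medians, are measured genes on 4 lists of ligases, conjugating enzymes, substrates and immune signalling genes. PUB25 and PUB26 are drawn both with the U-box ligases and with the substrates and immune signalling genes. RING1 at 2.08 and PUB24 at 0.98 lie to the right of all circles (listed genes only), which span -0.46 to 0.38.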

How the data were processed

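The authors deposited log2 expression values per probe set, 1 column per array, made with RMA and Partek per the submitters' processing notes, without versions. RMA subtracts a modelled background, equalises the distributions of the arrays and combines the probes of a set, and it shrinks differences of dim probe sets. Of 22810 rows, 64 control probe sets were dropped and the other 22746 were all tested. The platform annotation gave 13513 probe sets 1 gene, 503 several and 8730 none, and 13436 were matched to a locus of the gene table (TAIR10.1, used for names and gene order only).

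Tests were made with limma 3.58.1 (R 4.3.3), with 1 mean per group over all 6 arrays, empirical Bayes moderation (3 residual and 4.43 prior degrees of freedom) and Benjamini-Hochberg adjustment over all tested probe sets at 0.05. "Passed", "rose" and "called" mean an adjusted p under 0.05. The number of arrays limits the precision. Simulated data had 200 of 22746 probe sets changed. For the mean of both alleles, 99% of log2 changes of 1 and 100% of changes of 2 were found there. Of the 220 calls 21 were unchanged probe sets, above the 5% expected. The simulation drew independent normal noise with the moderated SD and gave all mutant arrays the same change. It therefore does not show how often such changes are found in the real arrays, where RING1 and PUB24 had a residual SD above the moderated one.

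The 4 genes and the lists were chosen with earlier results of these data known. Named list genes were those that passed, otherwise the 2 with the smallest p, and a gene singled out beyond that, as BIK1, was named after its values were seen. Because the gene table holds no descriptions, ATL genes were taken by symbol without ribosomal proteins, and proteasome genes by their synonyms. The gene neighbours were chosen later than the other lists. No flower or seed marker could be named. The alternatives comprised leaving out each array, fits of the groups compared, array weights, a prior that was trended and robust, a filter that kept means from the 40th percentile up (log2 5.33), median centring, cyclic loess, a replicate block and, chosen after seeing the data, an unmoderated test and adjustment over probe sets with 1 gene. Plots used matplotlib 3.10.9 (Python 3.11.15).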

Additional observations from a re-analysis of the deposited data

How the results depend on the processing

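The direction of all 4 genes against wild type held in every alternative run, over both alleles and in each allele, and PUB22 and PUB23 never passed. PUB22 lies below the 40th percentile of means and has no value under that filter. For PUB24 the mean of both alleles kept its value of 0.98 but not its call with the groups pooled, in the unmoderated test and over probe sets with 1 gene, and leaving out 1 array gave 0.82 to 1.13 (adjusted p = 0.00532 to 0.39). For RING1 it kept its value of 2.08 but not its call in the unmoderated test, and leaving out 1 array gave 1.89 to 2.26 (adjusted p = 4.04e-04 to 0.104). In camta3-1, leaving out 1 array gave 0.53 to 1.16 for PUB24 and 1.66 to 2.41 for RING1, and RING1, at 2.04, did not pass in the unmoderated test. In camta3-2, PUB24 at 1.11 passed with the filter (adjusted p = 0.0467), with the trended and robust prior (0.0476) and with only the groups compared (0.011), leaving out 1 array gave 1.01 to 1.20, and RING1 at 2.12 did not pass in the unmoderated test, with 2.03 to 2.20 on leaving out 1 array. Between the alleles median centring turned PUB22 to 0.0305 and PUB23 to 0.0014, and leaving out 1 array gave -0.0309 to 0.0036 for PUB22, -0.25 to 0.16 for PUB23, -0.0578 to 0.58 for PUB24 and -0.29 to 0.46 for RING1. The cause of these shifts was not tested.

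The replicate numbers of the labels are shared by the groups, but nothing says that they mark a batch. Deviations of same-numbered arrays correlated at 0.402 between the alleles, -0.04 between camta3-1 and wild type and 0.134 between camta3-2 and wild type. With the replicate block PUB24 passed in camta3-2 at 1.11 (adjusted p = 0.0353), and no other call of the 4 genes changed. The block gave 493, 430 and 280 called probe sets for the mean of both alleles, camta3-1 and camta3-2, against 320, 246 and 167 without it. Those counts were 5 to 458, 2 to 333 and 5 to 270 on leaving out 1 array, lowest without wild type replicate 1, and 131, 68 and 52 over probe sets with 1 gene, where fewer are tested. With only the groups compared 270 were called in camta3-2. Between the alleles 1 was called, and 1 to 7 on leaving out 1 array. The unmoderated linear model called 0 in all 4 comparisons, with 2348, 2174, 2042 and 1210 at an unadjusted p under 0.05. In 60 counts over the 4 gene lists under the alternatives, 0 were above 0, and 117 of 117 values of 8 listed genes kept their direction without passing.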
